A study of Mus musculus with 24 samples.

Results

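The histone genes of ER-Hoxb8 granulocyte-monocyte progenitors were examined across the 6 groups of the series. They were taken as the protein-coding rows whose GENCODE M21 symbol starts Hist1h, Hist2h, Hist3h, Hist4h, H1f, H2af or H3f. The table held 82 such genes, of which 29 had enough reads to be tested among the 12963 genes tested. Replication-dependent genes of the histone clusters, whose symbols start Hist, supplied 67 of the 82 and 20 of the 29. Replacement variants, whose symbols start H1f, H2af or H3f, supplied 15 of the 82 and 9 of the 29.

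ER-Hoxb8 cells are C57BL/6 mouse progenitors immortalised conditionally by an oestrogen-dependent Hoxb8, and they mature towards neutrophils once beta-estradiol is removed. Stable lentiviral lines, sorted on GFP, carried the human transcription factor ERG (WT-ERG), its P199L mutant with leucine in place of a proline in the pointed domain (P199L-ERG), or the empty vector (BB). Cells of all 6 groups were washed free of beta-estradiol and kept for 36 h in DMSO or in 5 µM BRD3308, an inhibitor of the histone deacetylase HDAC3. This dose and time are those of the detailed methods, and other passages of the study give different ones. Each group had 4 RNA-seq libraries, 24 in all, and every ERG group therefore carried its transgene on top of the conditional Hoxb8. The sources used here describe independent experiments but no separate transductions, so p-values measure the spread between these libraries of one set of lines.

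Cluster histone genes are compact and lack introns, and they are transcribed mainly in S phase, when new DNA has to be packaged. Their mRNAs usually end in a stem-loop, bound by SLBP, in place of a poly(A) tail. Variant genes are transcribed outside S phase as well, carry ordinary poly(A) tails, and their proteins replace the canonical ones at particular places in chromatin. HDAC3 removes acetyl groups from histone tails as part of the NCOR and SMRT corepressor complexes.

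The stem-loop is shown first because the mRNAs of cluster genes and variants usually differ by it. The pattern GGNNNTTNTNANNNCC, with all 6 stem positions paired and N standing for any base, was searched in the sense strand of the GENCODE M21 transcripts (GRCm38). It was found in 47 of the 82 histone genes, against 127 of 21890 protein-coding genes (0.58%). These sequences are given as DNA, 5′ to 3′, with the loop bases in capitals.
Form shared by 26 histone genes: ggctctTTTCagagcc
Form of Hist1h4c and Hist1h4d, shared by 7 genes: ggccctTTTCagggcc
Form of Hist1h3c, shared by 6 genes: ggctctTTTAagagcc
Form of Hist1h4i: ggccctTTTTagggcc
Form of Hist1h3g: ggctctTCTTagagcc
Form of H2afx: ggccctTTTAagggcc
Among the tested cluster genes 17 of 20 held the pattern, and among those with too few reads 29 of 47 did. Only annotated transcripts were searched, and those of untested cluster genes without a match were as short as 312 bases. A gene that lacks the stem-loop cannot be told apart here from one whose annotation ends before it. Hist1h1b, Hist1h2bc and Hist2h2be were the tested cluster genes without it. H2afx was the only variant that held it, 822 bases before the end of its transcript. An annotated transcript ran more than 100 bases past the stem-loop, or lacked it, in 12 of the 17 tested cluster genes with the pattern and in 12 of the 29 that were not tested. The labels name total RNA and standard library protocols for these samples, and the study's methods name an mRNA library protocol for a related experiment to which they refer. The selection step itself is not described in the sources used here. The part of tail-bearing transcripts in the cluster counts was not tested.

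Libraries held 12510036 to 16280939 reads in genes, with a median of 15083159.5. All 11 progenitor markers checked, such as Mpo and Elane, were among the genes tested, with a summed level of 24000 to 32300 CPM (counts scaled to a common library size). Of these 11, 6, 6 and 5 were called lower and 2 higher with BRD3308 in BB, WT-ERG and P199L-ERG, and the sum went from 27000 to 27600 CPM in BB DMSO to 24000 to 25700 CPM in BB BRD3308. WT-ERG had 4 higher and 2 lower than BB, and P199L-ERG 6 higher and 1 lower. T cell, erythroid, stromal and germ cell markers summed to at most 3.33 CPM in any library, with Cd4, Hba-a1, Hbb-bt, Col3a1, Dazl, Prm1 and Tnp1 at 0 throughout. Other lineages moved with the groups too: mast cell and basophil markers summed to 117 to 130 CPM in BB DMSO and 56.1 to 64.4 CPM in BB BRD3308, and to 284 to 311 and 132 to 146 CPM in the same treatments of WT-ERG. In P199L-ERG they summed to 215 to 261 CPM in DMSO and 101 to 109 CPM in BRD3308, with Fcer1a and Tpsb2 at 0 throughout. Of the 3 of these markers that were tested, 1 was called lower with BRD3308 in each line, and 2 were called higher in WT-ERG and 3 in P199L-ERG than in BB. Megakaryocyte markers summed to 24.1 to 28.1 CPM in BB DMSO and 38.5 to 46.3 CPM in BB BRD3308, to 63.6 to 69.8 and 51.8 to 53.6 CPM in WT-ERG, and to 44.7 to 47.8 and 39.5 to 43.5 CPM in P199L-ERG. Of their 3 tested markers, 2 were called higher and 1 lower with BRD3308 in each line. Against BB in DMSO, 1 was called higher and 1 lower in each ERG line. B cell markers summed to 3.51 to 5.76 CPM in DMSO and 17.5 to 25.1 CPM in BRD3308, with both tested markers called higher in each line. The shares of all genes called in these comparisons are given with the histone counts below. The part of these lineages and of the progenitor markers in the histone results was not tested. In bulk RNA, fewer cells of a type and less RNA per cell cannot be told apart. WT-ERG DMSO replicate 4 and P199L-ERG DMSO replicate 4 had relatively more reads in short genes, with correlations of -0.241 and -0.287 between a gene's deviation from its group and log2 gene length. P199L-ERG DMSO replicate 1 lay as far the other way, with a correlation of 0.241. Correlations were positive for replicate 1 and negative for replicate 4 in all 6 groups. The median histone deviation was 0.13 and 0.259 on the log2 scale in the 2 replicate 4 libraries, -0.158 in P199L-ERG DMSO replicate 1 and -0.207 in BB BRD3308 replicate 1. It was negative for replicate 1 and positive for replicate 4 in all 6 groups.

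Per kilobase of exon, every tested variant but H1fx stood above every cluster gene. In BB DMSO the group means were 160 CPM per kb for H3f3b, 119 for H2afx, 77.4 for H2afv, 70.4 for H2afj, 60.5 for H2afy, 58 for H2afz, 49.1 for H1f0, 43.3 for H3f3a and 9.16 for H1fx. The highest cluster genes were Hist1h1c at 13.6 and Hist1h4i at 9.71 CPM per kb. Hist2h2be followed at 3.83, Hist1h2bc at 2.8 and Hist1h3c at 1.64 CPM per kb. Cluster genes together supplied 3.14 ± 0.146% (SD, n = 4) of all histone counts in BB DMSO. These levels and shares depend on how reads that match several cluster genes were counted, which is not given in the sources used here.

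The first question was which histone genes moved when HDAC3 was inhibited. BRD3308 raised 10 and lowered 1 of the 29 histone genes in BB, raised 12 and lowered 2 in WT-ERG, and raised 9 and lowered 2 in P199L-ERG. Called histone genes made up 37.9, 48.3 and 37.9% of the 29 in BB, WT-ERG and P199L-ERG. The shares of all 12963 genes called in the same comparisons were 45.9, 48 and 48.5%, so the number of histone genes called was near or under the background. By direction, 34.5, 41.4 and 31% of the histone genes were called higher and 3.45, 6.9 and 6.9% lower, beside 24, 24.7 and 24.4% of all genes higher and 22, 23.2 and 24.1% lower. H1f0, H1fx, H2afy, H2afx and Hist1h3c rose in all 3 lines.

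**Figure D1:**
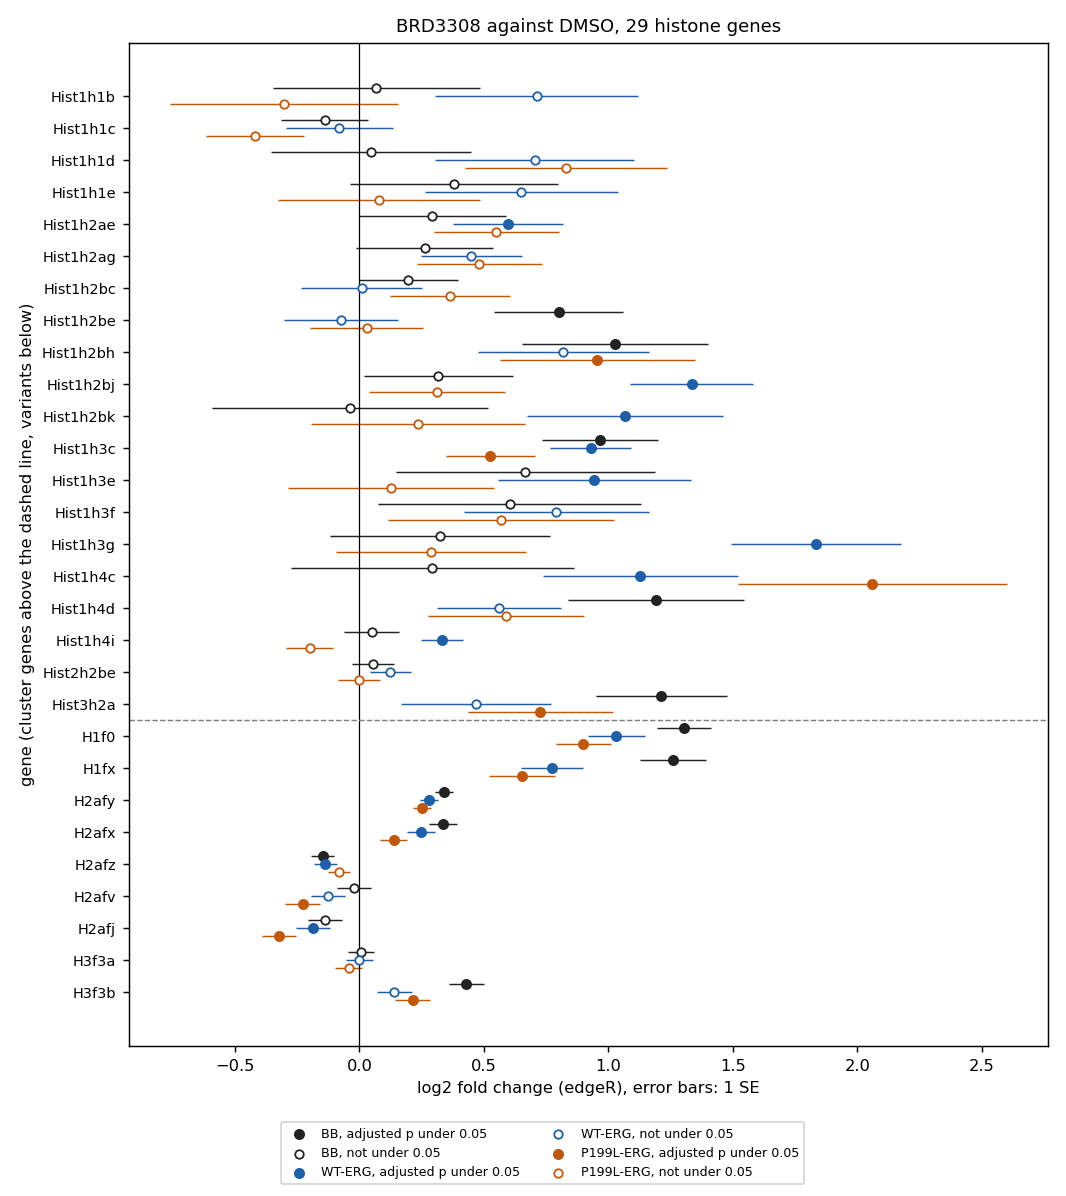
Log2 fold change of BRD3308 against DMSO for the 29 tested histone genes (x axis) in BB, WT-ERG and P199L-ERG (colours), with error bars of 1 SE and filled points for adjusted p under 0.05. Cluster genes lie above the dashed line and variants below it, and no cluster gene has a filled point left of 0.

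Linker histones bind the DNA that enters and leaves the nucleosome. H1f0 (chr15:79028450-79030504, plus strand, GRCm38) encodes H1.0, the linker variant that accumulates in differentiated and slowly dividing cells. Its level in BB was 86.9, 103, 105 and 109 CPM in the 4 DMSO libraries and 185, 253, 260 and 298 CPM in the 4 BRD3308 libraries. In WT-ERG it was 69.3, 74, 74.6 and 78.4 CPM in DMSO and 133, 142, 165 and 165 CPM in BRD3308. In P199L-ERG it was 79.9, 91.2, 97.2 and 104 CPM in DMSO and 140, 180, 178 and 194 CPM in BRD3308. Every BRD3308 library was above every DMSO library of its line. Such separation was common, at 44.8, 44.1 and 39.6% of all 12963 genes in BB, WT-ERG and P199L-ERG. Among the 29 histone genes, 9, 10 and 3 lay wholly above and 2, 2 and 1 wholly below. The rise was 2.47-fold in BB (log2 fold change 1.30 ± 0.11 SE, adjusted p = 1.04e-10). It was 2.05-fold in WT-ERG (log2 fold change 1.03 ± 0.113 SE, adjusted p = 1.59e-08) and 1.86-fold in P199L-ERG (log2 fold change 0.90 ± 0.11 SE, adjusted p = 1.31e-07). Per kilobase, BRD3308 moved H1f0 in BB from 49.1 to 121 CPM per kb, above the level of H2afy there (76.5 CPM per kb).

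H1fx (chr6:87980421-87981637, minus strand) encodes H1.10, a linker variant with a divergent sequence. Its level in BB was 9.3, 10.1, 11.5 and 13.7 CPM in DMSO and 22.3, 27.2, 25.7 and 31.1 CPM in BRD3308. The WT-ERG libraries held 16.1, 15.3, 15.6 and 17 CPM in DMSO and 26, 26.6, 28.2 and 28.4 CPM in BRD3308. The P199L-ERG libraries held 11.6, 11, 10.4 and 18.3 CPM in DMSO and 20.2, 20.8, 16.8 and 22.6 CPM in BRD3308. The treatments did not overlap in BB and WT-ERG, whereas P199L-ERG DMSO replicate 4, at 18.3 CPM, lay above the lowest BRD3308 library. H1fx rose 2.39-fold in BB (log2 fold change 1.26 ± 0.133 SE, adjusted p = 8.96e-09), 1.71-fold in WT-ERG (log2 fold change 0.77 ± 0.125 SE, adjusted p = 8.94e-06) and 1.57-fold in P199L-ERG (log2 fold change 0.65 ± 0.132 SE, adjusted p = 0.000175).

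The promoter windows of genes that carry the main differences are given here, and they are referred to again where the genes are described. They run from 250 bases before to 50 bases after the RefSeq start (GRCm38.p6), 5′ to 3′ on the gene's strand. Capitals mark, on either strand, the CCAAT box, the TATA element as TATAAA, the core of the H1 box as AAACACA and the octamer as ATTTGCAT. No matches in these windows overlapped.
H1f0 chr15:79027962-79028261 plus strand: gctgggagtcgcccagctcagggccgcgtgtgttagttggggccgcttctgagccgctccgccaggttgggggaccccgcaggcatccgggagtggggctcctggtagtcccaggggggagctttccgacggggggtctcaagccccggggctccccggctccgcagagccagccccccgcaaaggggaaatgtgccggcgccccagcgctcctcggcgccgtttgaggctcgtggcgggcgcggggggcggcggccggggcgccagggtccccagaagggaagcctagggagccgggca
H3f3b chr11:116024455-116024754 minus strand: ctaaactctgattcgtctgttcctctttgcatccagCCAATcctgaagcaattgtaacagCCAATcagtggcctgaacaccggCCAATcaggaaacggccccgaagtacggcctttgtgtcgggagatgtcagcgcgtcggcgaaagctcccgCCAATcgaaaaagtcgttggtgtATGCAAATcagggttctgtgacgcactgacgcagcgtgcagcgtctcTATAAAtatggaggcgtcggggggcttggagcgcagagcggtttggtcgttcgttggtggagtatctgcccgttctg
Hist1h1c chr13:23738557-23738856 plus strand: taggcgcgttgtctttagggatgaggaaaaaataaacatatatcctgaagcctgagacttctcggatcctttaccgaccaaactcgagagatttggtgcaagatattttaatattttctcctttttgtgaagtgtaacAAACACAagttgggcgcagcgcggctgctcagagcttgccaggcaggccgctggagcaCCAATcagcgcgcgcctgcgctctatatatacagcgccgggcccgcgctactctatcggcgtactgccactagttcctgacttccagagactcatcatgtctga
Hist1h4i chr13:22041313-22041612 minus strand: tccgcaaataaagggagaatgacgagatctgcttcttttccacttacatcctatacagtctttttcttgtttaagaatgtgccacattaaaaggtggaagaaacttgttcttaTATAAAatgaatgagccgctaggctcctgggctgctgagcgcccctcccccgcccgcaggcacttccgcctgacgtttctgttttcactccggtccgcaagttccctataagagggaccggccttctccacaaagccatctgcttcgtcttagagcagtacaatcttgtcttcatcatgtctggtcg
Hist1h3c chr13:23745472-23745771 minus strand: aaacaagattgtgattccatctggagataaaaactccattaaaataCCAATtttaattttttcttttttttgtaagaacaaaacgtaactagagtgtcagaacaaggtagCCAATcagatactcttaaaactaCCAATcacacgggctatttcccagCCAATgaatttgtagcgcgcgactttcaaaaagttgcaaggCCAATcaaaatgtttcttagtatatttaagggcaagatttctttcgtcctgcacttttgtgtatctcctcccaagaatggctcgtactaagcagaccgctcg
The H1f0 window held none of the 4 motifs, and its RefSeq start lay upstream of the GENCODE M21 start. The H3f3b window held 4 CCAAT matches, an octamer on the opposite strand and a TATAAA. Hist1h1c had AAACACA and CCAAT, Hist1h3c had 5 CCAAT matches, and Hist1h4i had a TATAAA alone. RefSeq promoters were matched for 76 of the 82 histone genes, with 63 windows for cluster genes. CCAAT was present in 54 of those 63 (85.7%) and in 37.4% of all 32851 promoter windows. All windows of cluster H1 (6), H2A (18), H2B (17) and H3 (10) genes held it, but only 3 of 12 H4 windows did. TATAAA was present in 55.6% of the cluster windows and 13.6% of all windows. AAACACA was present in 5 of the 6 cluster H1 windows and 7.18% of all. ATTTGCAT was present in 7 of 17 H2B and 7 of 18 H2A windows, in none of the H1, H3 and H4 windows, and in 1.74% of all. GGGCGG, not marked in capitals, was present in 7 of the 8 windows of tested variants (87.5%) and in 35.7% of all windows.

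Among H2A variants, macroH2A1 and H2A.X rose with BRD3308. H2afy (chr13:56073619-56136361, minus strand) encodes macroH2A1, whose large C-terminal domain is linked to silenced chromatin. Its level in BB was 403, 416, 414 and 415 CPM in DMSO and 524, 528, 516 and 517 CPM in BRD3308. WT-ERG libraries had 489, 490, 512 and 527 CPM in DMSO and 594, 615, 626 and 615 CPM in BRD3308. P199L-ERG libraries had 485, 496, 495 and 556 CPM in DMSO and 600, 603, 604 and 609 CPM in BRD3308. Every BRD3308 library exceeded every DMSO library of the same line. These changes were small and tightly measured: log2 fold change 0.34 ± 0.036 SE, adjusted p = 9.69e-09 in BB, 0.28 (adjusted p = 2.48e-07) in WT-ERG and 0.25 (adjusted p = 1.55e-06) in P199L-ERG.

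H2afx (chr9:44334694-44336077, plus strand) encodes H2A.X, which is phosphorylated around DNA breaks. Its level in BB was 156, 159, 168 and 173 CPM in DMSO and 201, 203, 213 and 212 CPM in BRD3308. For WT-ERG the values were 136, 141, 141 and 162 CPM in DMSO and 173, 171, 175 and 169 CPM in BRD3308. For P199L-ERG the values were 153, 161, 165 and 194 CPM in DMSO and 178, 189, 186 and 188 CPM in BRD3308. The treatments did not overlap in BB and WT-ERG, but P199L-ERG DMSO replicate 4 (194 CPM) was above all of its BRD3308 libraries. The log2 fold change was 0.34 (adjusted p = 1.25e-05) in BB, 0.25 (adjusted p = 0.000555) in WT-ERG and 0.14 (adjusted p = 0.0397) in P199L-ERG. The P199L-ERG call was lost without P199L-ERG DMSO replicate 1, 2 or 3 (adjusted p = 0.17, 0.115 and 0.0873) and without P199L-ERG BRD3308 replicate 2, 3 or 4 (0.0726, 0.0546 and 0.0653).

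The remaining H2A variants fell or did not pass the test. H2afz and H2afv encode H2A.Z.1 and H2A.Z.2, which sit beside transcription start sites. H2afz was 97.6 to 108 CPM in BB DMSO and 88.2 to 95.9 CPM in BB BRD3308, 92.4 to 103 and 85.5 to 92.4 CPM in WT-ERG, and 92.4 to 106 and 89.1 to 94.5 CPM in P199L-ERG. It fell by 0.15 on the log2 scale in BB (adjusted p = 0.00928) and by 0.14 in WT-ERG (adjusted p = 0.0142, and 0.0541 without WT-ERG DMSO replicate 4). In P199L-ERG its log2 fold change was -0.08 (adjusted p = 0.141). H2afv fell in P199L-ERG (log2 fold change -0.23 ± 0.0691 SE, adjusted p = 0.00752), from 116 to 157 CPM to 109 to 117 CPM. Its log2 fold change was -0.02 (adjusted p = 0.823) in BB and -0.13 (adjusted p = 0.139) in WT-ERG. H2afj encodes H2A.J, a mammalian variant known to accumulate in senescent cells. H2afj was 128 to 183 CPM in P199L-ERG DMSO and 112 to 121 CPM in P199L-ERG BRD3308 (log2 fold change -0.32 ± 0.0688 SE, adjusted p = 3e-04). In WT-ERG it was 139 to 159 and 126 to 132 CPM (log2 fold change -0.19, adjusted p = 0.0249), a call lost without WT-ERG DMSO replicate 4 (adjusted p = 0.0909) or WT-ERG BRD3308 replicate 2 (0.0533). In BB its log2 fold change was -0.14 (adjusted p = 0.104).

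H3f3a and H3f3b encode the same protein, H3.3, the H3 variant laid down at active genes outside replication. H3f3b (chr11:116021912-116027962, minus strand) was 456, 471, 490 and 489 CPM in BB DMSO and 533, 658, 667 and 709 CPM in BB BRD3308. In WT-ERG it was 460, 490, 495 and 528 CPM in DMSO and 489, 544, 566 and 577 CPM in BRD3308. In P199L-ERG it was 440, 487, 514 and 525 CPM in DMSO and 505, 584, 583 and 607 CPM in BRD3308. The BB treatments did not overlap, with BB BRD3308 replicate 1 well under the other 3, and the ERG lines overlapped at one library each. H3f3b rose in BB (log2 fold change 0.43 ± 0.0697 SE, adjusted p = 1.08e-05) and in P199L-ERG (log2 fold change 0.21 ± 0.0695 SE, adjusted p = 0.0127), where the call was lost without P199L-ERG DMSO replicate 1 (adjusted p = 0.0598). In WT-ERG its log2 fold change was 0.14 (adjusted p = 0.0982). H3f3a (chr1:180800832-180813943, minus strand) stayed between 126 and 161 CPM in all 24 libraries, with log2 fold changes of 0.01 (adjusted p = 0.933), 0.00 (adjusted p = 0.998) and -0.04 (adjusted p = 0.525). The ratio of H3f3b to H3f3a per exon length averaged 3.7 in BB DMSO (range 3.66 to 3.73) and 4.94 in BB BRD3308 (4.48 to 5.18). It averaged 4.19 (4.03 to 4.39) and 4.61 (4.57 to 4.65) in WT-ERG, and 4.05 (3.88 to 4.24) and 4.84 (4.51 to 5.04) in P199L-ERG. In each line the 4 BRD3308 ratios lay above the 4 DMSO ratios.

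**Figure D2:**
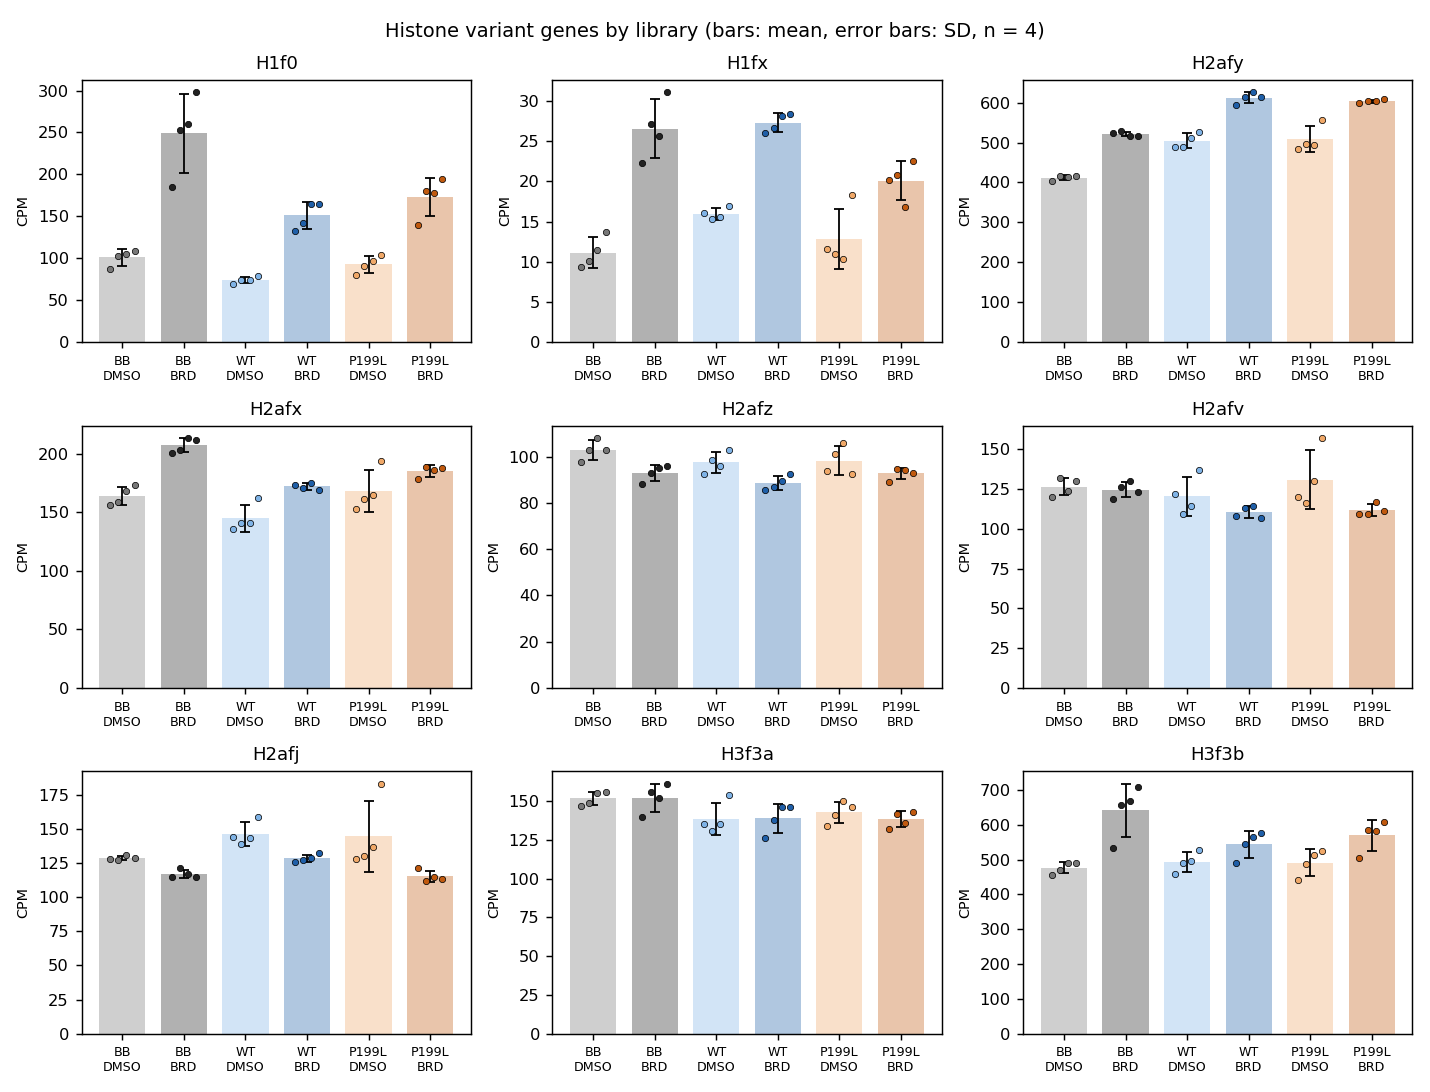
CPM of the 9 tested variant genes (y axes, from 0) in the 6 groups, with points for the 4 libraries, bars for the mean and error bars for the SD. H1f0 rises from 101 to 249 CPM on average in BB and H3f3a stays level, while H2afz falls from 103 to 93 CPM in BB.

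With the settings used throughout, cluster genes passed the test under BRD3308 in the upward direction. The counts were 5 higher and 0 lower of 20 in BB, 8 and 0 in WT-ERG, and 4 and 0 in P199L-ERG (edgeR). The shares called higher were 25, 40 and 20%, beside 24, 24.7 and 24.4% of all genes. The upward counts in BB and P199L-ERG were thus near or under the background. Of all genes, 22, 23.2 and 24.1% were called lower. At an unadjusted p under 0.05, 0 cluster genes were lower in BB and WT-ERG and 2 were lower in P199L-ERG, Hist1h1c and Hist1h4i. Lower calls of these genes in P199L-ERG appeared under other settings. Hist1h1c was called lower without a filter on low counts (adjusted p = 0.000257), with a covariate for the slope on gene length (0.0119), and without BB BRD3308 replicate 1 (0.03), P199L-ERG DMSO replicate 1 (0.0387) or P199L-ERG BRD3308 replicate 4 (0.0343). Hist1h4i was called lower with the slope covariate (adjusted p = 0.0374) and without P199L-ERG DMSO replicate 1 (0.0224) or P199L-ERG BRD3308 replicate 3 (0.05). The median log2 fold change over the 20 was 0.305 in BB, 0.676 in WT-ERG and 0.338 in P199L-ERG, beside medians of 0.00558, -0.00148 and -0.00616 over all genes tested. Positive values were found in 18, 18 and 16 of the 20. The 3 values for the lines rest on separate libraries. The filter on low counts was applied over all 6 groups, so a gene could pass it through 1 group where it was high. Hist1h3f, Hist1h3g and Hist1h2bk averaged 0.732, 1.11 and 0.785 CPM in WT-ERG BRD3308, and 0.421, 0.302 and 0.37 CPM in WT-ERG DMSO. The medians and counts of positive values are thus not independent of that filter. Nor is the number of cluster genes called in WT-ERG, which includes Hist1h3g and Hist1h2bk. The part of the filter in these results was not tested.

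Hist1h3c (chr13:23744973-23745602, minus strand), a canonical H3 gene, was the only cluster gene called in all 3 lines. Its level in BB was 1.43, 1.02, 0.985 and 0.71 CPM in DMSO and 1.97, 1.76, 2.47 and 1.95 CPM in BRD3308. The WT-ERG libraries held 1.89, 2.55, 2.79 and 2.75 CPM in DMSO and 4.46, 4.62, 4.67 and 5.35 CPM in BRD3308. The P199L-ERG libraries held 1.48, 1.76, 2.58 and 3 CPM in DMSO and 2.95, 3.29, 2.87 and 3.44 CPM in BRD3308. The treatments were apart in BB and WT-ERG and overlapped in P199L-ERG. It rose 1.95-fold in BB (log2 fold change 0.97 ± 0.232 SE, adjusted p = 0.00112), 1.9-fold in WT-ERG (log2 fold change 0.93 ± 0.163 SE, adjusted p = 3.02e-05) and 1.44-fold in P199L-ERG (log2 fold change 0.53 ± 0.179 SE, adjusted p = 0.0166). The P199L-ERG call was lost without P199L-ERG DMSO replicate 1 (adjusted p = 0.0867) or replicate 2 (0.0677). A share of 57.4% of its 60-base stretches (the read length in the study's methods) occurred in no other gene's transcripts, so reads from near copies cannot be told apart from its own over the rest.

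Other cluster genes rose in 1 or 2 of the lines, from low levels. Hist1h3g, another H3 gene, was 0.211, 0.303, 0.372 and 0.324 CPM in WT-ERG DMSO and 0.84, 1.54, 0.601 and 1.45 CPM in WT-ERG BRD3308 (log2 fold change 1.83 ± 0.343 SE, adjusted p = 6.67e-05). Hist1h2bj, an H2B gene, was 0.772, 0.607, 0.62 and 0.648 CPM and 1.49, 1.79, 1.47 and 1.99 CPM in the same groups (log2 fold change 1.34 ± 0.247 SE, adjusted p = 5.94e-05). In both genes all BRD3308 libraries of WT-ERG lay above its DMSO libraries. Outside WT-ERG BRD3308, the group means of Hist1h3g were 0.302 to 0.494 CPM. Its call is thus not independent of the filter on low counts. Hist1h4c, an H4 gene, was 0.129, 0.251, 0.139 and 0.0713 CPM in P199L-ERG DMSO and 0.458, 1.08, 0.523 and 0.54 CPM in P199L-ERG BRD3308 (log2 fold change 2.06 ± 0.539 SE, adjusted p = 0.00234). It also rose in WT-ERG (log2 fold change 1.13, adjusted p = 0.0187), a call lost without WT-ERG DMSO replicate 2 or 3 or WT-ERG BRD3308 replicate 1 or 3 (adjusted p up to 0.0863). Hist3h2a, an H2A gene on chromosome 11, was 1, 0.635, 0.704 and 0.71 CPM in BB DMSO and 1.46, 1.98, 1.8 and 1.88 CPM in BB BRD3308 (log2 fold change 1.21 ± 0.262 SE, adjusted p = 0.000384). Its exons overlap Trim17 on the same strand. It was also called in P199L-ERG (log2 fold change 0.73, adjusted p = 0.0395), a call lost without P199L-ERG DMSO replicate 1, 2 or 3 or P199L-ERG BRD3308 replicate 1, 2 or 4 (adjusted p up to 0.157). Hist1h4d was 0.286, 0.381, 0.704 and 0.552 CPM in BB DMSO and 1.27, 1.47, 0.8 and 0.867 CPM in BB BRD3308 (log2 fold change 1.19 ± 0.354 SE, adjusted p = 0.007).

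Hist1h2be and Hist1h2bh, both H2B genes, completed the calls in BB, with log2 fold changes of 0.80 (adjusted p = 0.0128) and 1.03 (adjusted p = 0.0261). Hist1h2be was 0.493 to 0.946 CPM in BB DMSO and 0.954 to 1.47 CPM in BB BRD3308, and its call was lost without BB DMSO replicate 3 (adjusted p = 0.0554). Exons of Hist1h2be, Hist1h1e and Gm11398 overlap on one strand. Hist1h2bh was 0.237 to 0.825 CPM and 0.762 to 1.52 CPM, and its call was lost without BB DMSO replicate 1, 3 or 4 or BB BRD3308 replicate 4 (adjusted p up to 0.115). It was also called in P199L-ERG (log2 fold change 0.96, adjusted p = 0.0443), and that call was lost without P199L-ERG DMSO replicate 1, 2 or 4, P199L-ERG BRD3308 replicate 1 or 2, or BB BRD3308 replicate 3 (adjusted p up to 0.151). The remaining calls in WT-ERG were Hist1h2ae, an H2A gene (log2 fold change 0.60, adjusted p = 0.0273), together with Hist1h2bk and Hist1h3e. The Hist1h2ae call was lost without WT-ERG DMSO replicate 1 or 2 or WT-ERG BRD3308 replicate 3 or 4 (adjusted p up to 0.114), and the Hist1h2bk call without WT-ERG DMSO replicate 3 or 4 or WT-ERG BRD3308 replicate 2 or 4 (up to 0.105). The Hist1h3e call was lost on leaving out any 1 of 14 libraries, with the highest adjusted p of 0.145 without WT-ERG DMSO replicate 3.

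Hist1h1c, Hist2h2be and Hist1h2bc, which were among the most abundant cluster genes, were not called with BRD3308 in any line. Hist1h1c (chr13:23738808-23740367, plus strand) encodes the linker histone H1.2. It was 16.1, 20.9, 26 and 22.1 CPM in BB DMSO and 11.2, 20.8, 21 and 24.6 CPM in BB BRD3308. WT-ERG libraries had 9.4, 8.13, 9.42 and 10.4 CPM in DMSO and 7.04, 8.38, 10.3 and 9.48 CPM in BRD3308. P199L-ERG libraries had 10.9, 11.5, 16 and 16.6 CPM in DMSO and 7.33, 10.7, 9.87 and 13.1 CPM in BRD3308. The treatments overlapped in all 3 lines, and log2 fold changes were -0.14 (adjusted p = 0.548), -0.08 (adjusted p = 0.783) and -0.42 (adjusted p = 0.0815). Hist2h2be, an H2B gene with no stem-loop match, stayed between 7.84 and 12 CPM in all 24 libraries, with log2 fold changes of 0.05 (adjusted p = 0.644), 0.12 (adjusted p = 0.229) and 0.00 (adjusted p = 0.988). Hist1h2bc, another H2B gene with no stem-loop match, had 0.20 (adjusted p = 0.453), 0.01 (adjusted p = 0.981) and 0.36 (adjusted p = 0.223). Hist1h4i, at the top of the same list, was called in WT-ERG.

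Hist1h4i (chr13:22040636-22041362, minus strand), an H4 gene, differed between all 3 constructs. Its level in BB was 6.94, 7.3, 6.9 and 7.1 CPM in DMSO and 6.92, 7.56, 6.8 and 8.02 CPM in BRD3308. For WT-ERG the values were 14.9, 14.7, 16.2 and 17.2 CPM in DMSO and 19.1, 17.8, 22.8 and 19.5 CPM in BRD3308. For P199L-ERG the values were 10.3, 11.1, 13.4 and 13.6 CPM in DMSO and 10.3, 9.5, 11.4 and 10.7 CPM in BRD3308. All WT-ERG libraries lay above all P199L-ERG libraries, which lay above all BB libraries. BRD3308 raised it 1.26-fold in WT-ERG (log2 fold change 0.33 ± 0.0848 SE, adjusted p = 0.00202), while the log2 fold change was 0.05 (adjusted p = 0.747) in BB and -0.20 (adjusted p = 0.0837) in P199L-ERG. Per kilobase it stood at 9.71 CPM per kb in BB DMSO, 21.7 in WT-ERG DMSO and 27.2 in WT-ERG BRD3308. A share of 73.7% of its 60-base stretches was unique to it.

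The second question was what ERG did to histone genes without the inhibitor. WT-ERG in DMSO had 9 histone genes higher and 4 lower than BB, 44.8% of the 29, where 29.7% of all genes were called (15.6% higher and 14.1% lower). Among cluster genes 6 were higher and 2 lower of 20, and among variants 3 were higher and 2 lower of 9. The median over the cluster genes was 0.398, beside 0.00939 over all genes. P199L-ERG had 4 higher and 2 lower, 20.7% of the 29, where 28.2% of all genes were called (15.3% higher and 12.9% lower). These 6 were 3 cluster genes higher, 2 cluster genes lower and H2afy higher. Both comparisons use the same BB DMSO libraries. The filter on low counts ran over all 6 groups here too. With only the groups compared, 18 histone genes were tested for WT-ERG and 19 for P199L-ERG. The counts, shares and median above are thus not independent of that filter, and its part in them was not tested. The libraries of the 2 groups did not overlap in 30.5% of all genes for WT-ERG and 24.5% for P199L-ERG. Among the 29 histone genes, 8 lay wholly above BB and 3 below in WT-ERG, and 3 and 1 in P199L-ERG.

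Hist1h4i had the smallest p in WT-ERG, at 2.23 times the BB level (log2 fold change 1.16 ± 0.0989 SE, adjusted p = 2.53e-10), and was 1.7 times the BB level in P199L-ERG (log2 fold change 0.77 ± 0.102 SE, adjusted p = 1.41e-06). Hist1h3c was 2.39-fold higher in WT-ERG (log2 fold change 1.26 ± 0.222 SE, adjusted p = 6.02e-05) and 2.08-fold higher in P199L-ERG (log2 fold change 1.06 ± 0.228 SE, adjusted p = 0.000809). Hist1h1c was lower in both, at 0.437 times the BB level in WT-ERG (log2 fold change -1.19 ± 0.192 SE, adjusted p = 1.73e-05) and 0.644 times in P199L-ERG (log2 fold change -0.64 ± 0.181 SE, adjusted p = 0.00928). All WT-ERG DMSO libraries had less Hist1h1c than any BB DMSO library. In P199L-ERG, replicate 4 (16.6 CPM) was above BB replicate 1 (16.1 CPM).

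Hist1h2bc was lower as well, at 2.65, 3.24, 3.73 and 3.31 CPM in BB, 2.18, 1.76, 1.67 and 2.51 CPM in WT-ERG and 0.836, 2.07, 2.02 and 2.07 CPM in P199L-ERG. No library of either ERG line reached the lowest BB library. Its log2 fold change was -0.69 (adjusted p = 0.0191) in WT-ERG and -0.89 (adjusted p = 0.00403) in P199L-ERG. The WT-ERG call was lost without BB DMSO replicate 3 (adjusted p = 0.0658) or WT-ERG DMSO replicate 2 (0.0606) or 3 (0.0671).

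Hist1h2ag, an H2A gene, was higher in WT-ERG, with 1, 1.02, 1.13 and 0.788 CPM in BB and 2.04, 1.4, 1.86 and 2.51 CPM in WT-ERG (log2 fold change 0.95 ± 0.249 SE, adjusted p = 0.00415). Its P199L-ERG libraries held 1.03, 1, 1.04 and 1.28 CPM, with a log2 fold change against BB of 0.14 (adjusted p = 0.767). Only 21.6% of its 60-base stretches were unique. Hist1h4d was 1.47, 1.21, 0.992 and 1.7 CPM in WT-ERG (log2 fold change 1.45 ± 0.34 SE, adjusted p = 0.00146) and 0.579, 0.565, 0.557 and 1.28 CPM in P199L-ERG (log2 fold change 0.62, adjusted p = 0.247). Hist1h2be and Hist1h2ae were also called higher in WT-ERG, with log2 fold changes of 0.79 (adjusted p = 0.0204) and 0.78 (adjusted p = 0.0306), and Hist1h2be was called higher in P199L-ERG with 0.74 (adjusted p = 0.0337). The Hist1h2be call in WT-ERG was lost without BB DMSO replicate 1 or 3 or WT-ERG DMSO replicate 3 (adjusted p up to 0.149). In P199L-ERG it was lost without BB DMSO replicate 1, 2 or 3 or P199L-ERG DMSO replicate 2 or 4 (up to 0.137). The Hist1h2ae call was lost without BB DMSO replicate 1 or 2 or WT-ERG DMSO replicate 3 or 4 (up to 0.102). Without both libraries rich in short genes, the adjusted p was 0.0737 for Hist1h2ae in WT-ERG and 0.102 for Hist1h2be in P199L-ERG.

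The linker variants went opposite ways with WT-ERG. H1f0 was lower, at 0.734 times the BB level (log2 fold change -0.45 ± 0.115 SE, adjusted p = 0.00344), with means of 101 ± 9.73 CPM in BB and 74 ± 3.74 CPM in WT-ERG (SD, n = 4). H1fx was 1.44-fold higher (log2 fold change 0.52 ± 0.141 SE, adjusted p = 0.00502), with means of 11.1 ± 1.94 and 16 ± 0.736 CPM. In both genes the 4 WT-ERG libraries were apart from the 4 BB libraries. In P199L-ERG the log2 fold changes were -0.12 (adjusted p = 0.475) for H1f0 and 0.21 (adjusted p = 0.313) for H1fx. H2afy was higher in WT-ERG (log2 fold change 0.29 ± 0.036 SE, adjusted p = 2.52e-07) and P199L-ERG (log2 fold change 0.30 ± 0.036 SE, adjusted p = 2.31e-07).

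H2afx was lower in WT-ERG (log2 fold change -0.18 ± 0.0557 SE, adjusted p = 0.0142), a call lost without BB DMSO replicate 4 (adjusted p = 0.0585) or WT-ERG DMSO replicate 1 (0.0589). H2afj was higher in WT-ERG (log2 fold change 0.18, adjusted p = 0.046), a call lost on leaving out any 1 of 14 libraries, with the highest adjusted p of 0.153 without WT-ERG DMSO replicate 4. H2afz, H2afv, H3f3a and H3f3b had log2 fold changes of -0.08 (adjusted p = 0.196), -0.07 (adjusted p = 0.509), -0.13 (adjusted p = 0.0676) and 0.05 (adjusted p = 0.652) in WT-ERG. H3f3a was called lower in WT-ERG under 8 of the 11 alternatives, such as DESeq2 (adjusted p = 0.0483) and the fit without both libraries rich in short genes (0.00467). In P199L-ERG the same genes had -0.07 (adjusted p = 0.269), 0.04 (adjusted p = 0.677), -0.09 (adjusted p = 0.221) and 0.04 (adjusted p = 0.689).

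**Figure D3:**
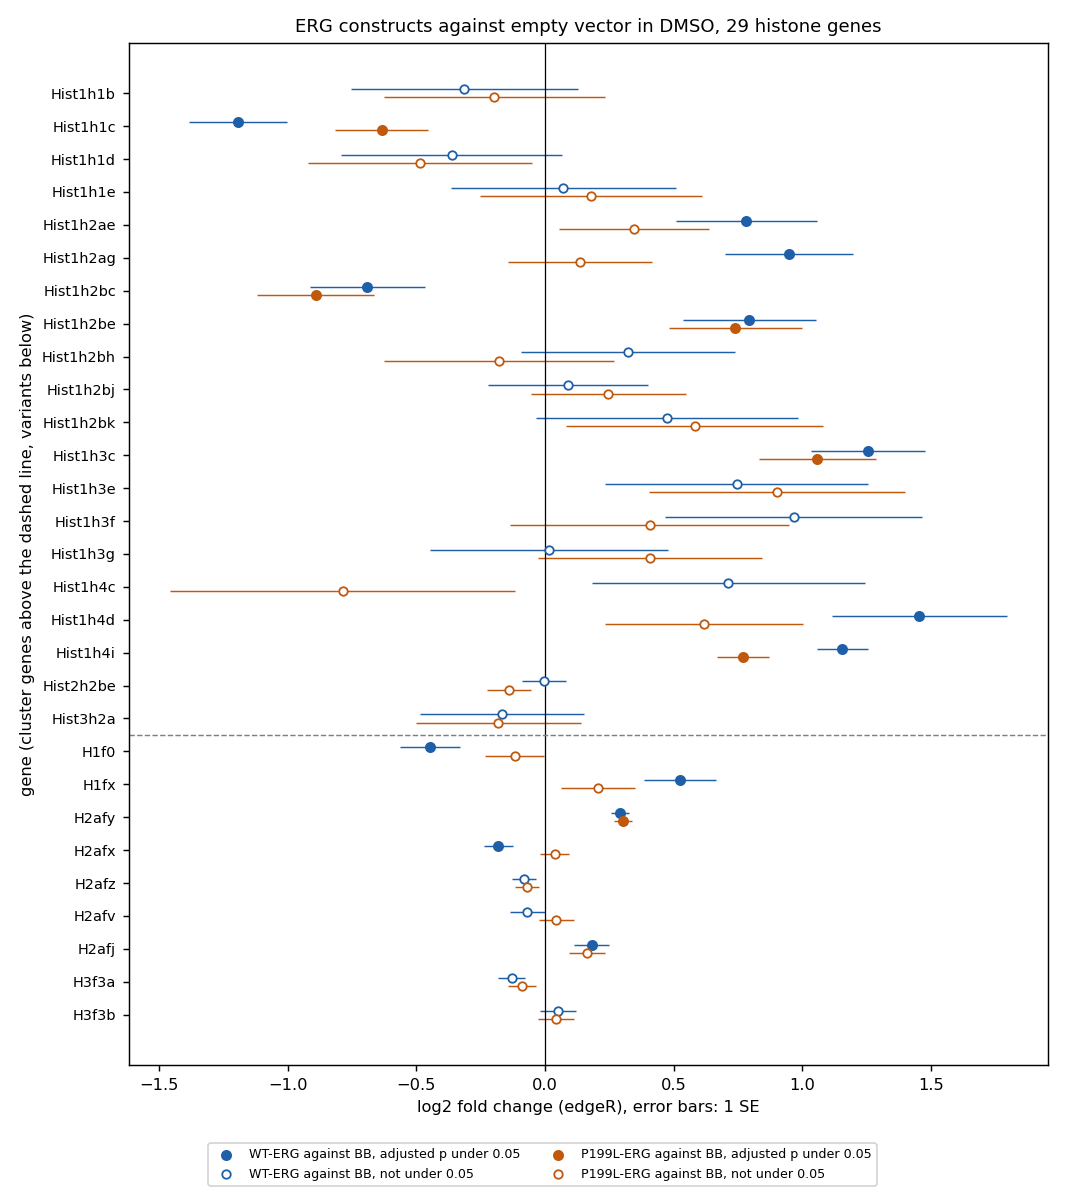
Log2 fold change against BB in DMSO for the 29 tested histone genes (x axis), in WT-ERG and P199L-ERG (colours), with error bars of 1 SE and filled points for adjusted p under 0.05. Both lines are compared with the same 4 BB libraries. Hist1h1c and Hist1h2bc have filled points left of 0 in both lines, and Hist1h4i, Hist1h3c, Hist1h2be and H2afy right of 0 in both.

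The third question was whether the mutant differed from WT-ERG itself. P199L-ERG against WT-ERG in DMSO gave 1 histone gene higher and 2 lower, 10.3% of the 29, where 4.67% of all genes were called (2.23% higher and 2.45% lower). Hist1h4i was lower in P199L-ERG, at 0.765 times the WT-ERG level (log2 fold change -0.39 ± 0.0902 SE, adjusted p = 0.00835). Hist1h2ag was lower, at 0.569 times (log2 fold change -0.81 ± 0.241 SE, adjusted p = 0.0477). The 4 P199L-ERG libraries were below the 4 WT-ERG libraries in both genes. Libraries were apart in this comparison for 7.63% of all genes, and for the histone genes 2 lay above and 2 below. H2afx was 1.16-fold higher (log2 fold change 0.22 ± 0.0556 SE, adjusted p = 0.0178), with overlapping libraries. The Hist1h2ag call was lost on leaving out any 1 of 18 libraries, with the highest adjusted p of 0.12 without WT-ERG DMSO replicate 4, and without both libraries rich in short genes (0.134). The H2afx call was lost without WT-ERG DMSO replicate 1, 2 or 3 (adjusted p = 0.0808, 0.0684 and 0.0656). The number of calls was 5 without BB BRD3308 replicate 1 or P199L-ERG DMSO replicate 4, and 1 without WT-ERG DMSO replicate 1 or 3. Fitting these 2 groups alone lost all 3 calls, with adjusted p of 0.0816 for Hist1h4i, 0.0924 for Hist1h2ag and 0.254 for H2afx. Hist1h2ag had 0.059 with DESeq2 and 0.0739 with limma-voom. For the linker genes the log2 fold changes were 0.33 (adjusted p = 0.118) for H1f0, -0.32 (adjusted p = 0.229) for H1fx and 0.56 (adjusted p = 0.138) for Hist1h1c. H1f0 was called higher when these 2 groups were fitted alone (adjusted p = 0.0431) and when the fit allowed for each library's gene-length slope (0.00359). Hist1h1c was called higher with that slope (adjusted p = 0.00775) and without BB BRD3308 replicate 1 (0.0437).

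**Figure D4:**
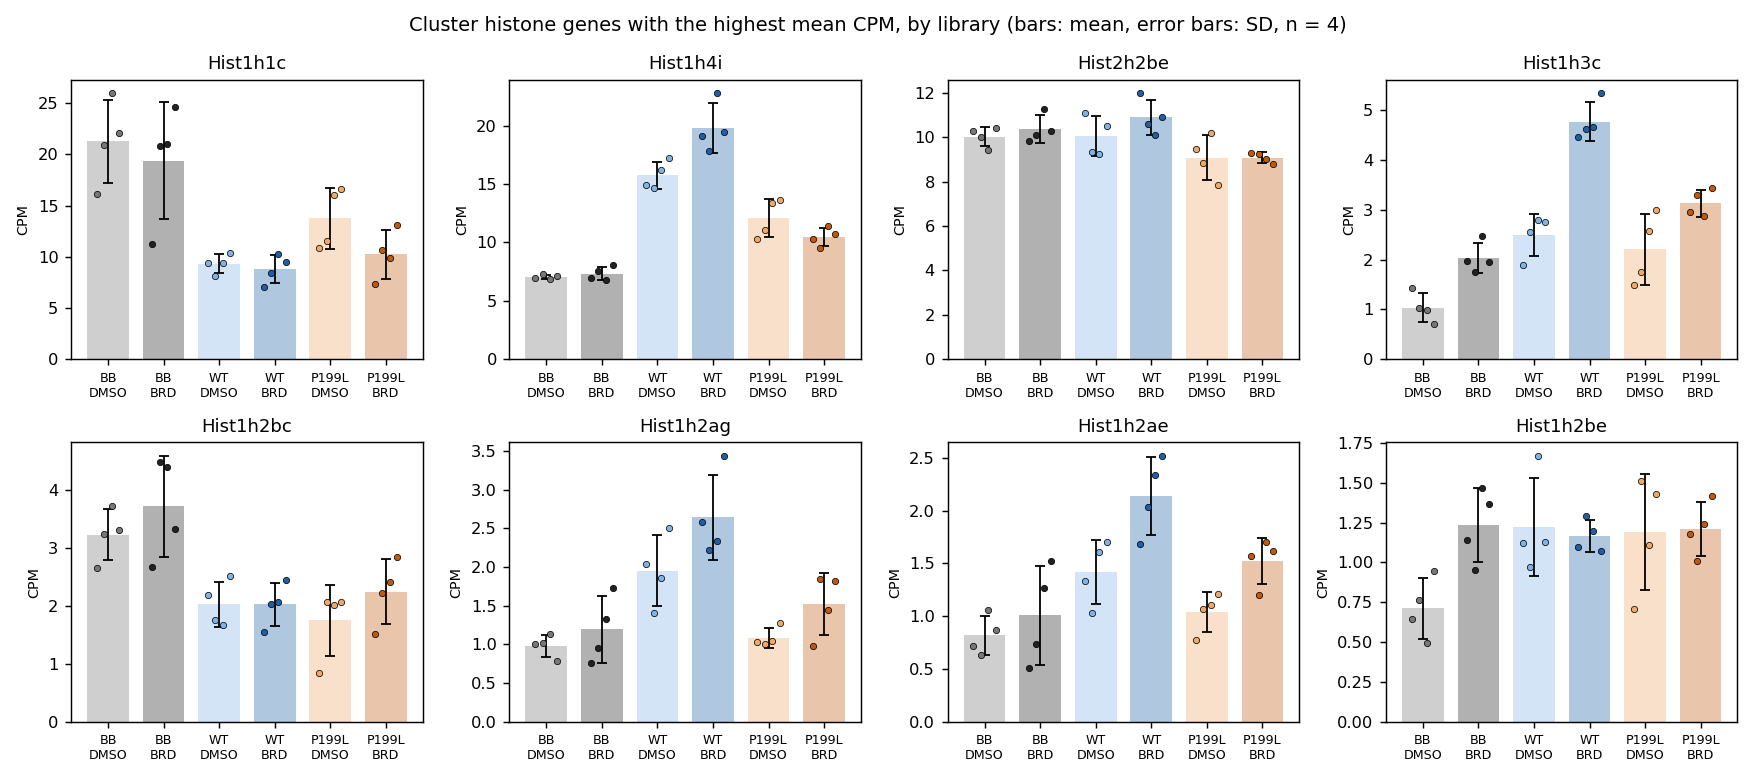
CPM of the 8 cluster genes with the highest mean level (y axes, from 0) in the 6 groups, with points for the 4 libraries, bars for the mean and error bars for the SD. Hist1h4i is highest in WT-ERG and lowest in BB, Hist1h1c is highest in BB, and Hist2h2be is level.

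The last comparison asked whether the response to BRD3308 differed between lines. In the main fit, which has no term for replicate number, histone calls were 0 of 29 in each comparison of lines (edgeR). Over all genes, 1.73% were called for WT-ERG against BB, 1.05% for P199L-ERG against BB (0.455% higher and 0.594% lower) and 0.0463% for P199L-ERG against WT-ERG (0.0231% higher and 0.0231% lower). At an unadjusted p under 0.05 there were 5, 7 and 3 histone genes (17.2, 24.1 and 10.3% of the 29), beside 10.4, 12.8 and 5.89% of all genes. When the fit allowed for each library's gene-length slope, histone calls were 2, 5 and 1 in the same order, and without a filter on low counts 3 and 2 in the first 2 comparisons. DESeq2 called 0 in each as well, with adjusted p not given for 15, 15 and 21 of the 29, and limma-voom called 0. Adding a term for replicate number to the edgeR fit gave 3, 3 and 1. In the first 2, H1f0 (adjusted p = 0.03 and 0.000624), H1fx (0.0308 and 0.00958) and H3f3b (0.000231 and 0.0096) had a smaller response in the ERG line. In the last, Hist1h4i had a lower response in P199L-ERG (0.0133). H1f0 had a difference in log2 response of -0.27 ± 0.156 SE in WT-ERG against BB (adjusted p = 0.599) and -0.40 ± 0.154 SE in P199L-ERG against BB (adjusted p = 0.259). H1fx had -0.48 (adjusted p = 0.271) and -0.61 (adjusted p = 0.137), and H3f3b had -0.29 (adjusted p = 0.194) and -0.22 (adjusted p = 0.357). The first 2 of these comparisons share the BB libraries. BB BRD3308 replicate 1 had the lowest H1f0 and H3f3b of its group. Without it, H3f3b was called for WT-ERG against BB (difference -0.37, adjusted p = 0.0137) and H1f0 for P199L-ERG against BB (difference -0.52, adjusted p = 0.0474). Hist1h4i had the smallest p of the histone genes for P199L-ERG against WT-ERG (difference -0.53, adjusted p = 0.198).

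Summed over all 67 cluster genes, the level was 54.4 ± 4.09 CPM in BB DMSO and 59.5 ± 9.51 CPM in BB BRD3308 (mean ± SD, n = 4). It was 56.1 ± 4.79 and 72.9 ± 3.56 CPM in WT-ERG, and 53.1 ± 7.69 and 53.4 ± 4.77 CPM in P199L-ERG. The WT-ERG BRD3308 libraries, at 69.2 to 77.5 CPM, lay above the WT-ERG DMSO libraries at 51.4 to 62.8 CPM. By histone type, the 6 H1 genes summed to 23.2 ± 4.37 CPM in BB DMSO, 11.3 ± 1.11 CPM in WT-ERG DMSO and 15.6 ± 4.05 CPM in P199L-ERG DMSO. H4 genes ran the other way, with 13 genes summing to 9.35 ± 0.431, 19.1 ± 1.5 and 14.6 ± 2.4 CPM in the same groups. The 12 H3 genes summed to 4.49 ± 1.04 CPM in WT-ERG DMSO and 8.94 ± 0.497 CPM in WT-ERG BRD3308, and to 2.45 ± 0.348 and 4.21 ± 0.492 CPM in BB. The 18 H2A genes summed to 3.26 ± 0.446 and 4.85 ± 1.13 CPM in BB, and the 18 H2B genes to 16.1 ± 0.532 and 18.4 ± 1.5 CPM. The H1 sum is mostly Hist1h1c and the H4 sum mostly Hist1h4i. As a share of all histone counts, cluster genes made up 2.7 ± 0.261% in BB BRD3308, 3.13 ± 0.129% and 3.56 ± 0.0817% in WT-ERG DMSO and BRD3308, and 2.87 ± 0.217% and 2.58 ± 0.13% in P199L-ERG DMSO and BRD3308.

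**Figure D5:**
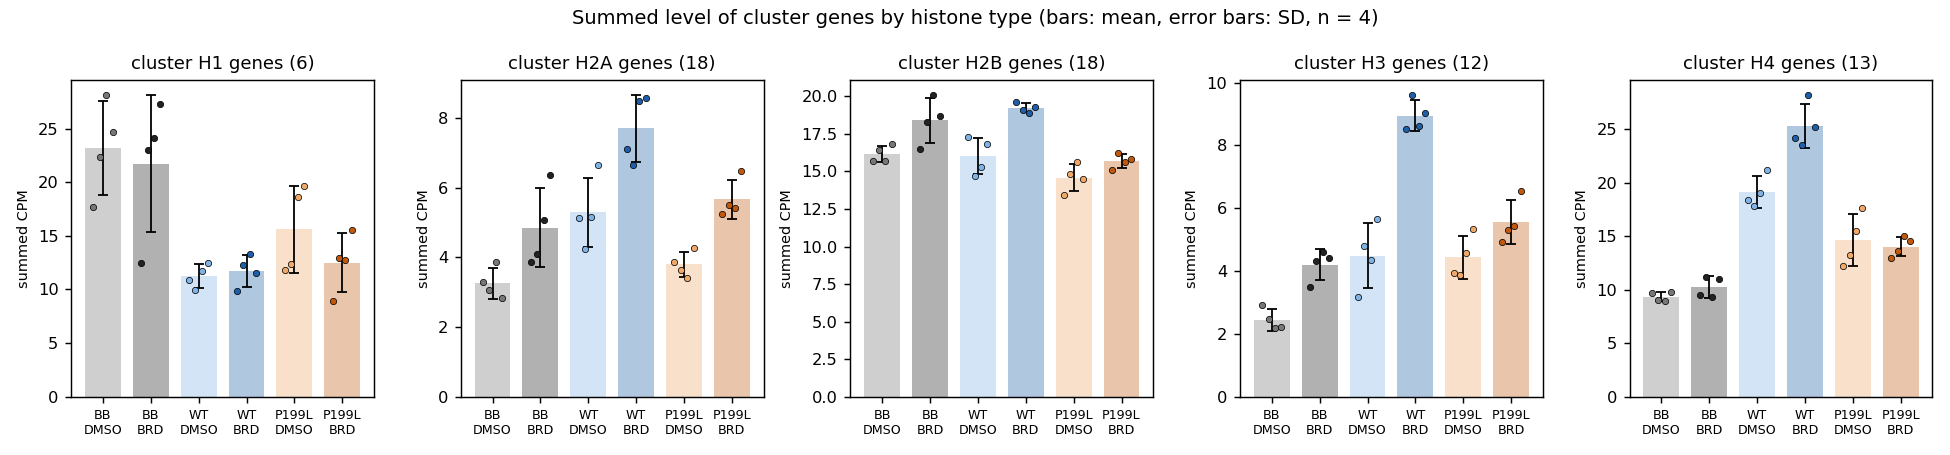
Summed CPM of the cluster genes of each histone type (y axes, from 0, gene number in each title) in the 6 groups, with points for the 4 libraries, bars for the mean and error bars for the SD. The H1 sum is highest in BB, the H4 sum is highest in WT-ERG, and the H3 sum is highest in WT-ERG BRD3308 at 8.94 CPM.

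Of the 53 histone genes with too few reads, 47 were cluster genes, 11 at 0 in every library, and none had more than 152 reads over the 24 libraries together. As a sum they held 3.8 CPM in BB DMSO and 4.62 CPM in BB BRD3308, 4.89 and 7.83 CPM in WT-ERG, and 4.79 and 5.34 CPM in P199L-ERG. The 6 untested variants were H2afy2, the second macroH2A gene, with 152 reads in all, the oocyte linker gene H1foo with 1 read, and the germline genes H1fnt, H2afb1, H2afb2 and H2afb3 with 0. A median of 36.8% of the 60-base stretches of the untested cluster genes were unique to one gene, against 70.7% for tested cluster genes and 94.4% for tested variants. How reads that match several genes were counted is not given in the sources used here, nor is the strand setting. H1f0, H1fx, H2afx, H2afy, H2afj and H3f3a have exons that overlap predicted or antisense genes, such as Gm49544 at H1f0.

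Genes that serve histone synthesis were listed beside the members. Of 35 S-phase and replication genes, BRD3308 raised 1 and lowered 22 in BB, raised 2 and lowered 19 in WT-ERG, and raised 2 and lowered 23 in P199L-ERG, with medians of -0.171, -0.171 and -0.177 (all genes: 22, 23.2 and 24.1% called lower, as above). Mcm7, a subunit of the replicative helicase, had log2 fold changes of -0.36, -0.37 and -0.38 (adjusted p = 1.29e-08, 7.95e-09 and 3.21e-09). The summed S-phase level was 7890 to 8290 CPM in BB DMSO and 7400 to 7470 CPM in BB BRD3308, 7230 to 7460 and 6640 to 6710 CPM in WT-ERG, and 7700 to 7940 and 7130 to 7190 CPM in P199L-ERG. Most S-phase genes were thus called lower with BRD3308, while the called cluster genes were all higher. In BB and P199L-ERG, however, the share of cluster genes called higher was near or under that of all genes, as given above. WT-ERG against BB gave 0 higher and 18 lower of the 35, such as Mcm5 at -0.24 (adjusted p = 2.6e-07). Of all genes, 15.6% were higher and 14.1% lower there. P199L-ERG against BB gave 1 higher and 4 lower, and P199L-ERG against WT-ERG gave 9 higher and 0 lower, such as Cdc6 at 0.22 (adjusted p = 0.0048). Shares of all genes were 15.3% higher and 12.9% lower against BB, and 2.23% and 2.45% against WT-ERG. The part of the cell cycle in the histone results was not tested.

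Histone chaperones and remodellers fell with BRD3308 as well. Of 27 tested, 2 were higher and 16 lower in BB, 0 and 16 in WT-ERG, and 1 and 16 in P199L-ERG, with medians of -0.165, -0.155 and -0.148. Over all genes, 24, 24.7 and 24.4% were called higher and 22, 23.2 and 24.1% lower in the same comparisons. Nasp, the chaperone of linker and free H3-H4 histones, had -0.39, -0.42 and -0.43 on the log2 scale (adjusted p = 8.98e-07, 2.17e-07 and 1.22e-07). Vps72, a subunit of the complexes that load H2A.Z, had -0.32, -0.34 and -0.36 (adjusted p = 2.23e-06, 8.76e-07 and 2.63e-07). WT-ERG against BB gave 1 higher and 7 lower, and P199L-ERG against BB 4 higher and 3 lower. Of all genes, 15.6% were higher and 14.1% lower in the first comparison, and 15.3% and 12.9% in the second. The list of histone mRNA supply covers genes of transcription, 3′ end processing and decay of mRNA, so its members do not all act to raise histone mRNA. Among its 18 tested genes, BRD3308 raised 1 and lowered 7 in BB, raised 1 and lowered 7 in WT-ERG, and raised 0 and lowered 6 in P199L-ERG. The shares of all genes to set beside these counts are those given for the chaperones. Cpsf1, a subunit of the 3′ end cleavage machinery, had -0.39, -0.25 and -0.24 (adjusted p = 1.3e-10, 5.64e-07 and 6.78e-07). No gene of these 3 lists was called for a difference in response between lines.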

How the data were processed

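RNA was extracted with TRIzol from 24 libraries in 6 groups of 4, taken from the library titles. The authors deposited 1 table of raw read counts per gene, with 53801 rows. Per the submitters' processing notes, cutadapt, STAR, HTSeq and DESeq2 were used on GRCm38. Versions, gene annotation and strand setting: not given in the sources used here. Of the gene identifiers, 53706 matched GENCODE M21, which supplied symbols, coordinates and exon lengths.

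Counts were tested in R 4.3.3 with edgeR 4.0.16 (quasi-likelihood F test, TMM factors, filterByExpr with a minimum count of 10), in 1 fit of all 24 libraries with a term for each group. P-values were two-sided and Benjamini-Hochberg adjusted over the 12963 genes tested, with a threshold of 0.05. The standard error (SE) was taken as the size of the log2 fold change over the square root of its F. Levels (CPM) are counts scaled to a common library size with TMM factors, and CPM per kb divides by exon length. DESeq2 1.42.0 and limma-voom (limma 3.58.1) served as alternatives. The code was tested on simulated counts. Library depth was 12510036 to 16280939 reads, and precision falls for genes near 1 CPM.

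Every tested variant was named, with the 8 cluster genes of highest mean CPM and, in each comparison, the 4 cluster genes of smallest p in each direction. Hist1h1b, Hist1h1e, Hist1h2bk, Hist1h3e and Hist1h3f fall outside that rule and were named after their values were seen. Members, gene lists and comparisons were chosen with earlier results of these data known. Stem-loops and 60-base stretches, the read length of the study's methods, were searched in GENCODE M21 transcripts. Promoter windows are RefSeq's (GRCm38.p6). Replicates were not duplicates: the chi-square per gene between libraries of a group ranged from 1.47 to 21.4.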

Additional observations from a re-analysis of the deposited data

Results flagged for a closer look

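Each group of 4 libraries was examined for each gene named by the rule and for sums over several genes, 180 combinations in all. In 9 of these, all of single genes, 1 library stood far from the other 3, and chance alone gives about 1 in 20. P199L-ERG DMSO replicate 4 was that library in 5 of the 9. It held 18.3 CPM of H1fx against 10.4 to 11.6 CPM in the other P199L-ERG DMSO libraries. It held 183 CPM of H2afj against 128 to 137, and 556 CPM of H2afy against 485 to 496. It held 1.28 CPM of Hist1h2ag against 1.0 to 1.04, and 1.28 CPM of Hist1h4d against 0.557 to 0.579. This was also the library with the strongest excess of short-gene reads, and the part of that excess in the 5 values was not tested.

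In P199L-ERG DMSO replicate 1, Hist1h2bc was 0.836 CPM, against 2.02 to 2.07 CPM in the other 3. H2afy was 403 CPM in BB DMSO replicate 1, against 414 to 416 CPM. Hist1h2bh was 0.849 CPM in WT-ERG DMSO replicate 2, against 0.558 to 0.567 CPM. Hist1h4c was 1.08 CPM in P199L-ERG BRD3308 replicate 2, against 0.458 to 0.54 CPM.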

How the results depend on the processing

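No histone call reversed direction under any alternative. Scaling by library size alone or by relative log expression, DESeq2, limma-voom and leaving out both libraries rich in short genes each kept the count of histone calls within 1.5 times in all 9 comparisons. Of 58 calls, 37 held without any 1 library, and 36 held as well under every alternative in which the gene was tested. The filter of more than 30 reads tested 32 of the 58, and the fit of only the groups compared 55. Without both libraries rich in short genes, Hist1h2bh in P199L-ERG with BRD3308 had an adjusted p of 0.15. Without a filter on low counts, 6 histone genes were called for P199L-ERG against WT-ERG (3 in the report), and 3 and 2 for the responses of WT-ERG and P199L-ERG against BB. With more than 30 reads in every library, only 12 histone genes were tested, and the calls were 6, 6 and 7 for BRD3308 in BB, WT-ERG and P199L-ERG, 7 for WT-ERG against BB and 3 for P199L-ERG against BB. At an adjusted p under 0.01 they were 8 and 6 for BRD3308 in WT-ERG and P199L-ERG, 8 for WT-ERG against BB and 1 for P199L-ERG against WT-ERG. A covariate for the slope on gene length gave 7 for P199L-ERG against WT-ERG, and 2, 5 and 1 for the 3 response differences. Fitting only the groups compared gave 6 for BRD3308 in P199L-ERG and 1 for P199L-ERG against WT-ERG, with fewer histone genes tested (24 and 20). That 1 was H1f0 (adjusted p = 0.0431), and none of the 3 calls of the report was among it. The cause of the other shifts was not tested. Leaving out 1 library gave 9 to 12, 12 to 18 and 7 to 13 calls for BRD3308 in BB, WT-ERG and P199L-ERG, the 7 without P199L-ERG DMSO replicate 2. It gave 9 to 14 and 5 to 7 for WT-ERG and P199L-ERG against BB, 1 to 5 for P199L-ERG against WT-ERG, and 0 to 1, 0 to 1 and 0 to 0 for the responses. Depth limits the cluster genes most, since many lay near 1 CPM.

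Replicate numbers are shared by the groups, and the labels name no shared batch. Same-numbered libraries deviated together (correlation over 0.1) in 1 or 2 of the 4 numbers, depending on the groups compared. The main fit therefore did not pair the libraries. For P199L-ERG against WT-ERG the same-number correlations were 0.0551 to 0.295 (median 0.169), and those of other numbers -0.27 to 0.0824. If the numbers mark shared experiments, the main fit leaves that pairing out. On average over the libraries of each number, 17 of 24 libraries correlated best with their own number, a hint from the data and not from the design. With a replicate block, 6 histone genes were called for P199L-ERG against WT-ERG, and 3, 3 and 1 for the response differences of WT-ERG against BB, P199L-ERG against BB and P199L-ERG against WT-ERG. H1f0, H1fx and H3f3b were the calls in both of the first 2, and Hist1h4i in the last. The block also called Hist1h1c (adjusted p = 0.00253) and Hist1h4i (0.0348) lower with BRD3308 in P199L-ERG, and it kept the other counts within 1.5 times.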

Other observations

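Hist1h2bk, Hist1h4i, Hist1h2ag and Hist1h2bj lie side by side on chromosome 13, within 22035870 to 22043676 (GRCm38). Hist1h2ag and Hist1h2bj face away from each other, and their promoter windows overlap. With WT-ERG in DMSO, Hist1h4i and Hist1h2ag were called higher than in BB, whereas Hist1h2bj had a log2 fold change of 0.09 (adjusted p = 0.875). With BRD3308 in WT-ERG the divergent partner was called and Hist1h2ag missed the threshold: Hist1h2bj had 1.34 (adjusted p = 5.94e-05) and Hist1h2ag 0.45 (adjusted p = 0.0687). Hist1h2ag was called there with a covariate for the slope on gene length (adjusted p = 0.0384), without both libraries rich in short genes (0.0273) and without WT-ERG DMSO replicate 4 (0.0304). The difference between the partners was not tested. Unique 60-base stretches made up 44.1% of Hist1h2bj and 21.6% of Hist1h2ag. These neighbours were chosen after their values were seen.

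Cenpa, the H3 variant of centromeres, whose symbol falls outside the histone naming rule, was not called in any of the 9 comparisons.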
